A study of Mus musculus with 14 samples.

Results

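The 10 genes described here encode replacement histone variants, histones whose synthesis is not limited to S phase and whose genes lie apart from the replication-dependent histone clusters. They were chosen by name as H2afz, H2afv, H2afx, H2afy, H2afy2, H3f3a, H3f3b, H1f0, H1fx and Cenpa. Each was represented by the assembled locus with the highest mean among the loci that carried its name, and all 10 were found among 17453 gene names. RNA-seq had been made from hippocampi of mouse embryos of day 16 to 18 in 14 libraries. The 189N3 line carries an extra copy of Dyrk1a, a kinase gene of the Down syndrome region, with its flanking sequence on a bacterial artificial chromosome, and 3 libraries of it were set against 3 of its wild-type littermates. The Dp(16)1Yey/+ line carries a duplication of the stretch of mouse chromosome 16 that corresponds to human chromosome 21, Dyrk1a included, and 4 libraries of it were set against 4 of its wild-type littermates. Both are germline changes, so the extra copies are not limited to 1 cell type, and the dissected hippocampus holds many. The sources give 3 embryos per genotype for 189N3 and 4 for Dp(16)1Yey, as many as there are libraries, but do not tie a library to an embryo or a litter. The p-values measure the spread between these libraries. None of the members (0 of 10) lies on chromosome 16, so no member has an extra copy in either line.

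Replication-dependent histones are made in S phase from clustered genes whose mRNAs end in a stem-loop in place of a poly(A) tail. Most replacement variants come from polyadenylated mRNAs (H2afx mRNA is known to end either way), are not limited to S phase and are placed into chromatin by their own chaperones, so that neurons, which no longer divide, come to rely on them. H2A.Z (H2afz and H2afv) marks promoters, H2A.X (H2afx) is phosphorylated at DNA breaks, macroH2A (H2afy and H2afy2) is enriched on silent chromatin, H3.3 (H3f3a and H3f3b) fills nucleosomes at active genes, H1.0 (H1f0) and H1.10 (H1fx) bind linker DNA, and CENP-A (Cenpa) defines the centromere.

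Depth ranged from 20809136 to 29098454 fragments per library. The values are normalised fragment counts per locus, that is, fragments divided by 1 size factor per library. Dyrk1a checked the labels of 189N3: its values of 4248, 3938 and 5877 lay above the 2448, 2977 and 2126 of the littermates, a log2 difference of 0.89 ± 0.24 (SE) with a limma adjusted p of 1.00. In Dp(16)1Yey, where Dyrk1a also has an extra copy, its log2 difference was 0.22 ± 0.23 with overlapping groups, so it did not check the labels there. The 8 hippocampal markers were expressed in every library, with a mean log2 value between 10.3 and 11.1. Median log2 differences in 189N3 and Dp(16)1Yey were 0.13 and -0.21 for these markers, 0.20 and -0.01 for neuronal, -0.11 and 0.04 for progenitor and 0.46 and -0.38 for striatal markers. They were -1.32 and 1.23 for erythroid markers, with 6 of 6 lower and 6 of 6 higher, and -1.69 and 0.21 for the 5 and 4 skin markers tested. Without Dp(16)1Yey replicate 1 the erythroid median there was 0.68, and without littermate replicate 2 of 189N3 the skin median was -0.63. The part of these markers in the members' values was not tested. Several libraries stood apart. Among the Dp(16)1Yey littermates, replicates 0 and 1 were nearly alike, with a median squared difference of 1.65 times counting noise, and so were replicates 2 and 3, at 2.03 times, whereas the other pairings of that group gave 31.5 to 36.5 times. The 6 striatal markers divided in the same way. Their mean log2 value was 4.96 and 5.06 in replicates 0 and 1, and 7.85 and 7.93 in replicates 2 and 3. The part of this difference in the members' values was not tested. Whether these littermate libraries hold 4 separate samples was not settled. The limma test of the members was therefore also run with each near-alike pair averaged. In that fit 271 of 36024 loci had an unadjusted p under 0.05, against 1273 with 4 libraries. The SEs, intervals and p-values printed for Dp(16)1Yey count 4 separate littermate libraries, and may be too small if the pairs are not separate. Within 189N3, replicate 1 held the lowest of the 3 values for 62.2% of the named loci tested and replicate 2 the highest for 80.7%. Dp(16)1Yey replicate 1 is described with its members' values.

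Per length, the members spanned more than 2 orders of magnitude. H3f3a had the highest level, with a median of 5633 normalised fragments per kilobase of annotated exon over the 14 libraries (range 4299 to 8682). H3f3b followed at 3722 (3211 to 4772), and H2afz at 3162 (2237 to 7884). H1f0 stood at 1820 per kilobase, H2afy2 at 599, H2afv at 545, H2afy at 441 and H2afx at 186. Cenpa, at 49.4, and H1fx, at 13.98, closed the order. Thus the H3.3 genes, H2afz and H1f0 carried most of the signal, and H3f3a alone made up a median of 33.8% of the summed level per kilobase. Neighbours in this order were not all separated. H3f3b exceeded H2afz in 11 of 14 libraries and H2afy2 exceeded H2afv in 10 of 14, and the ranges of both pairs overlapped. Every other neighbour kept its place in 14 of 14 libraries, although the ranges over libraries were apart only for H1f0 over H2afy2, H2afy over H2afx and Cenpa over H1fx. With the length of the longest transcript in place of the union of exons, an alternative chosen after seeing the data, H2afz came above H3f3b in 9 of 14 libraries, H2afy above H2afy2 in 10 of 14, and H2afy above H2afv, with medians of 748 and 545 per kilobase.

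**Figure D1:**
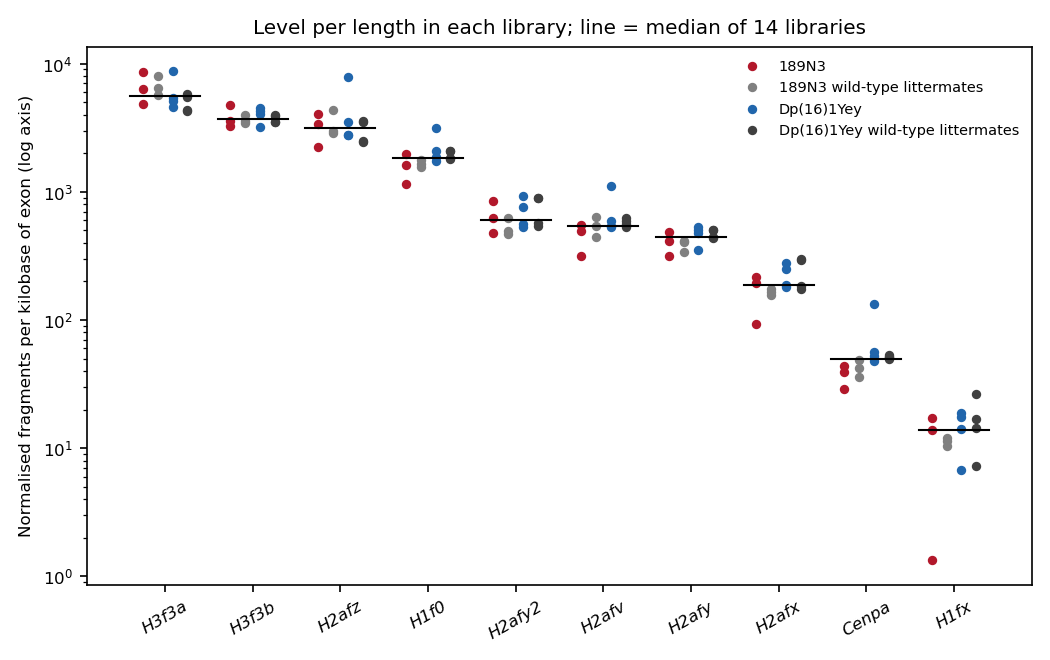
Level of each member per kilobase of annotated exon (log axis) in the 14 libraries, coloured by group, with the median of the 14 as a line. H3f3a is highest at a median of 5633 and H1fx lowest at 13.98, and 1 blue point, Dp(16)1Yey replicate 1, stands above the rest for H2afz, H2afv and Cenpa.

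H2A.Z has a major and a minor gene, H2afz (now H2az1, chr3:137864487-137866922, plus strand, GRCm38) and H2afv (now H2az2, chr11:6427229-6444443, minus strand). H2afz measured 5984, 3972 and 7208 normalised fragments in the 189N3 libraries and 5125, 5247 and 7706 in their littermates. It measured 4943, 14001, 4912 and 6180 in the Dp(16)1Yey libraries and 4326, 4443, 6290 and 6194 in theirs. The groups overlapped in both lines, and the 1 value that stood far out was that of Dp(16)1Yey replicate 1. The log2 difference, on log2(value + 1), was -0.09 ± 0.26 (SE) in 189N3 and 0.37 ± 0.31 in Dp(16)1Yey. In bulk tissue, here and for every gene that follows, fewer cells of a type and less RNA per cell cannot be told apart. H2afv measured 813, 520 and 891 in 189N3 and 885, 719 and 1045 in the littermates. It measured 862, 1801, 889 and 963 in Dp(16)1Yey and 918, 862, 962 and 1020 in the littermates. Here too the groups overlapped and Dp(16)1Yey replicate 1 stood out, at 1.99 times the mean of the other 3, and the log2 differences were -0.27 ± 0.26 and 0.19 ± 0.23.

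CENP-A is the centromeric H3 variant and its gene is transcribed mainly before mitosis (chr5:30666777-30674830, plus strand). Cenpa measured 258, 171 and 230 in 189N3 and 247, 212 and 286 in the littermates. It measured 280, 776, 308 and 331 in Dp(16)1Yey and 293, 301, 311 and 301 in the littermates. The highest littermate value was 1.06 times the lowest, 3 of the 4 Dp(16)1Yey values lay close to them, and replicate 1 was 2.53 times the mean of the other 3. The log2 differences were -0.19 ± 0.26 in 189N3 and 0.36 ± 0.28 in Dp(16)1Yey.

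The H2A.Z genes and Cenpa were all highest in Dp(16)1Yey replicate 1. Centred within each line, H2afz correlated with Cenpa at a Pearson r of 0.91, and at 0.73 without that library. With H3f3a it correlated at 0.96, and at 0.95 without that library. The sequence before the start sites of the H2A.Z pair is shown because its genes, on different chromosomes, encode nearly the same protein. The sequences are the 250 bases before the RefSeq start (GRCm38.p6), on the gene's strand. Capitals mark 3 motifs, searched on both strands. CCAAT is bound by NF-Y, TATAAA is a form of the TATA box, and TTTGAA is the core of the cell cycle genes homology region, an element known from genes that peak in G2 and mitosis.
H2afz, chr3:137864237-137864486, plus strand: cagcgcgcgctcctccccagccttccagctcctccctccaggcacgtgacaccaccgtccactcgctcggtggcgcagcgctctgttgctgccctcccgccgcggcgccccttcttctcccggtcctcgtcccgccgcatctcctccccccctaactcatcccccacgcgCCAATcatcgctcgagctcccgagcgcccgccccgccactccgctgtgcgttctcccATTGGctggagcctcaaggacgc
H2afv, chr11:6444444-6444693, minus strand: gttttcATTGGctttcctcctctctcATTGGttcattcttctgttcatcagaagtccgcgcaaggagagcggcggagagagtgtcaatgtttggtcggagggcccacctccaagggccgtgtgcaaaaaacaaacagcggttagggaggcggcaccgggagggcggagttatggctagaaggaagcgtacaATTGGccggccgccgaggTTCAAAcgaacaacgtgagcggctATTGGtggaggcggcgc
CCAAT starts 80 bases before the start of H2afz on its own strand and 23 bases before it on the opposite strand. H2afv has 4 matches, all on the opposite strand, and TTTGAA 41 bases before its start. The windows of Cenpa and H3f3b hold 2 and 4 matches of CCAAT, and H3f3b has TATAAA 27 bases before its start. Over the 9 members with an entry in the table, CCAAT was present in 5, against 33.8% of all 32851 promoters of the same length. TTTGAA was present in 1 of 9 against 16.0%, and TATAAA in 1 of 9 against 12.4%. GGGCGG, the GC box, which has no base in common with the capitals printed, was present in 5 of 9, both H2A.Z genes among them, against 32.7%, while the median GC content of these windows was 71.2% for the members and 52.4% over all promoters. Part of the H2afz window is also an exon of an antisense transcript, Gm43403, in the annotation. A match describes letters and not binding.

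H2A.X comes from H2afx (now H2ax, chr9:44334694-44336077, plus strand, an unspliced gene). H2afx measured 271, 130 and 302 in 189N3 and 241, 216 and 231 in the littermates. It measured 346, 386, 260 and 251 in Dp(16)1Yey and 256, 239, 404 and 412 in the littermates. In the latter, replicates 0 and 1 lay below the remaining pair, by a ratio of 1.65 between the means, which is the division of near-alike libraries given above. All 10 members had a higher mean in replicates 2 and 3 of these littermates than in 0 and 1, with the ratio lowest for Cenpa, at 1.03, and at 1.65 for H2afx the highest outside the sparse H1fx. The same direction was seen in 70.3% of the 14696 named loci tested. The groups overlapped in both lines, with log2 differences of -0.06 ± 0.30 and -0.06 ± 0.23.

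MacroH2A carries a large macro domain behind its histone fold and comes from H2afy (now Macroh2a1, chr13:56073619-56136361, minus strand) and H2afy2 (now Macroh2a2, chr10:61738665-61784147, minus strand). H2afy measured 2824, 2150 and 3321 in 189N3 and 2770, 2791 and 2313 in the littermates. It measured 3592, 3454, 3232 and 2401 in Dp(16)1Yey and 2963, 3048, 3419 and 3401 in the littermates. The spread within 189N3 and within Dp(16)1Yey covered that of the littermates, with log2 differences of 0.06 ± 0.24 and -0.03 ± 0.16. H2afy2 measured 1359, 1032 and 1850 in 189N3 and 1075, 1356 and 1021 in the littermates. It measured 2034, 1657, 1217 and 1159 in Dp(16)1Yey and 1251, 1173, 1952 and 1953 in the littermates. Its log2 difference of 0.27 ± 0.26 in 189N3 was the highest of the 10 members there, and that in Dp(16)1Yey was -0.06 ± 0.24, again with overlapping groups.

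H3.3 is encoded by H3f3a (chr1:180800832-180813943, minus strand) and H3f3b (chr11:116021912-116027962, minus strand), which make the same protein from different mRNAs. H3f3a measured 22126, 16839 and 30251 in 189N3 and 20090, 22577 and 28266 in the littermates. It measured 17896, 30420, 16023 and 18858 in Dp(16)1Yey and 15063, 15288, 20326 and 19384 in the littermates. Dp(16)1Yey replicate 1 was again the highest of its group, at 1.73 times the mean of the other 3, and the log2 differences were -0.06 ± 0.25 and 0.21 ± 0.21. H3f3b measured 10583, 9725 and 14200 in 189N3 and 10631, 11814 and 10323 in the littermates. It measured 12619, 13310, 11950 and 9556 in Dp(16)1Yey and 10504, 10493, 11522 and 11716 in the littermates. H3f3b was the steadiest member, with a highest value 1.49 times the lowest over 14 libraries, against 2.02 times for H3f3a, and its log2 differences were 0.06 ± 0.22 and 0.09 ± 0.15. Copies of H3.3 mRNA lie elsewhere in the mouse genome, and how fragments shared with them were divided cannot be read from the table.

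Linker histone H1.0, known to accumulate in cells that leave the cycle, was the fourth most abundant member (H1f0, chr15:79028450-79030504, plus strand). It measured 3343, 2349 and 4084 in 189N3 and 3604, 3189 and 3403 in the littermates. It measured 3845, 6482, 4272 and 3559 in Dp(16)1Yey and 3801, 3681, 4277 and 4296 in the littermates. The groups overlapped, with Dp(16)1Yey replicate 1 at 1.67 times the mean of the other 3, and the log2 differences were -0.10 ± 0.24 and 0.14 ± 0.19. H1fx (now H1f10, chr6:87980421-87981637, minus strand) was close to the limit of detection. It measured 16.9, 1.63 and 20.8 in 189N3, 13.9, 12.6 and 14.5 in the littermates, 22.7, 21.2, 8.16 and 17.1 in Dp(16)1Yey, and 17.5, 8.91, 20.5 and 32.4 in their littermates. The value of 1.63 stands for 2 fragments, with an exact 95% Poisson interval of 0.242 to 7.22, and the most fragments in any library was 32. Differences of -0.54 ± 0.63 and -0.15 ± 0.42 on the log2 scale were accordingly the least certain of the set. For the other 9 members the fewest fragments in a library was 159, and counting error was at most 7.93% of a value. Intervals from counts cover counting error only.

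**Figure D2:**
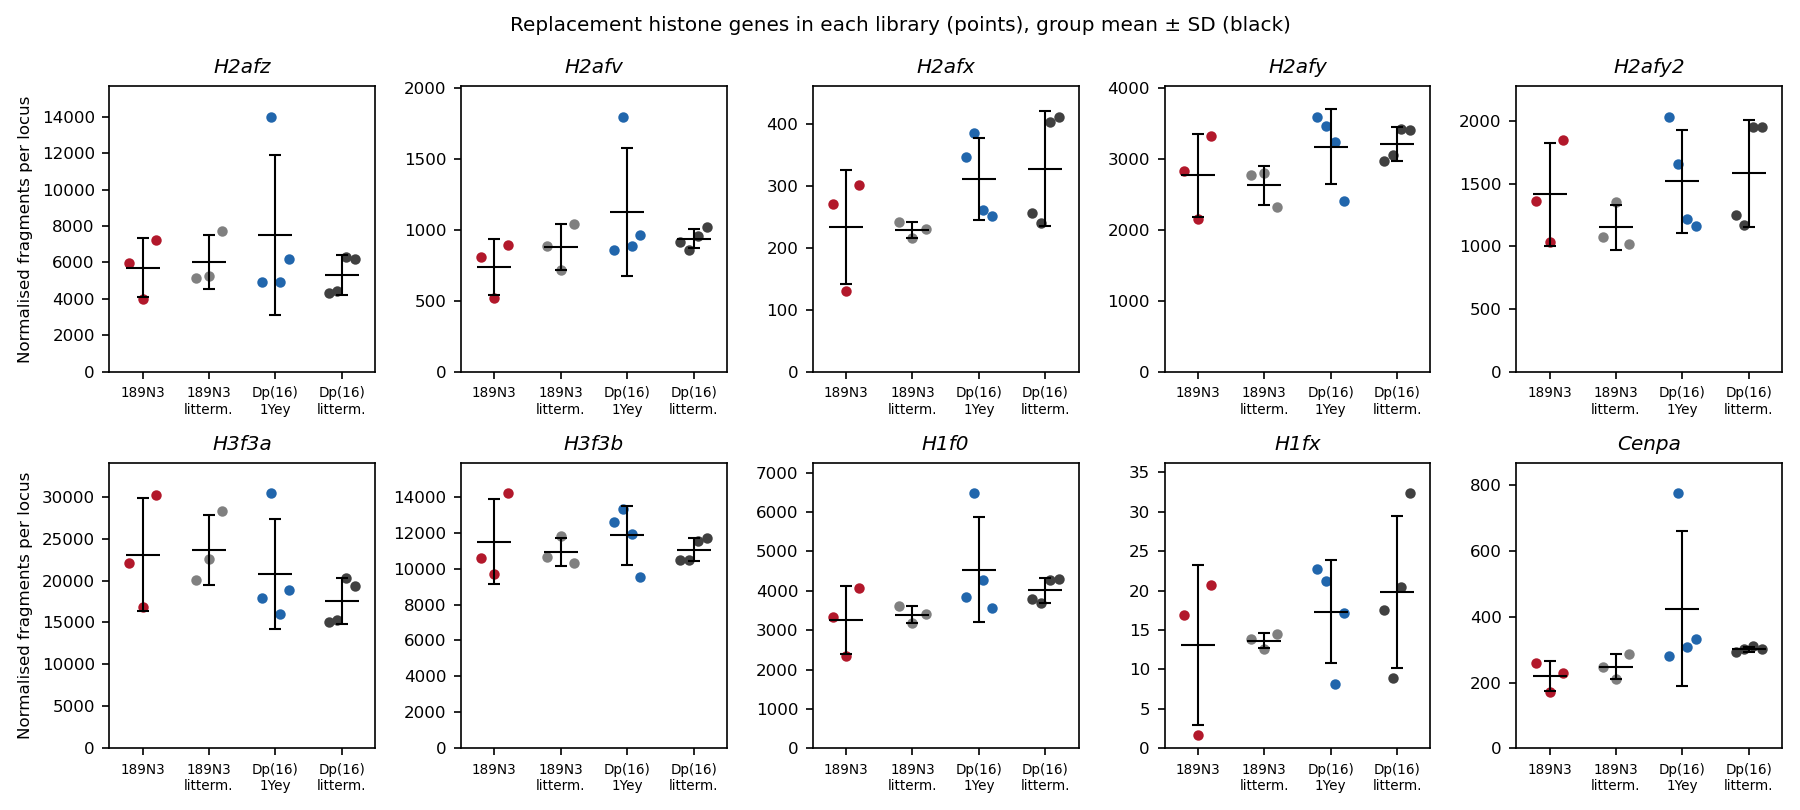
Normalised fragments per locus for each member in the 14 libraries (points, from replicate 0 at the left of each group), with the group mean ± SD (n = 3, 3, 4 and 4) in black and each axis starting at 0. The groups overlap in all 10 panels, and Dp(16)1Yey replicate 1 stands apart for H2afz at 14001, H2afv at 1801 and Cenpa at 776.

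Set against their littermates, the 10 members gave no call in either line. In 189N3, 0 of 10 passed a limma adjusted p of 0.05, against 0% of the 35899 loci tested, and 0 of 10 had an unadjusted p under 0.05, against 1.87% of loci, 0.825% higher and 1.05% lower. No member (0 of 10) had groups that did not overlap, against 4.98% of loci. The median log2 difference of the members was -0.08, with 3 higher and 7 lower, beside -0.04 over all loci, of which 43.8% were higher. That median rested on single libraries, since it was 0.16 without 189N3 replicate 1, which held the lowest value of its group for 10 of 10 members, and -0.28 without 189N3 replicate 2, which held the highest for 9 of 10. These are also the libraries in which named loci as a whole ran low and high.

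In Dp(16)1Yey, 0 of 10 members passed an adjusted p of 0.05, against 0% of 36024 loci, and 0 of 10 had an unadjusted p under 0.05, against 3.53% of loci, 1.71% higher and 1.82% lower. Again 0 of 10 had groups that did not overlap, against 2.45%. The median log2 difference was 0.12, with 6 higher and 4 lower, beside 0.03 over all loci, of which 54.9% were higher. Without Dp(16)1Yey replicate 1 the median was -0.05, with 4 higher and 6 lower. The smallest exact permutation p of a member was 0.4 in each line (H2afy2 in 189N3 and Cenpa in Dp(16)1Yey, two-sided), where 0.1 and 0.0286 are the smallest that 3 against 3 and 4 against 4 allow. edgeR and DESeq2 on recovered fragments also gave 0 of 10 in both lines, at an adjusted and at an unadjusted p of 0.05. Averaging the near-alike littermate libraries left 0 of 10 in Dp(16)1Yey.

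What these libraries could have shown is given by the intervals. Leaving out H1fx, the 95% intervals of the log2 differences ran from as low as -0.84 (H2afv) to as high as 0.82 (H2afy2) in 189N3, and from -0.58 (H2afy2) to 1.05 (H2afz) in Dp(16)1Yey. The narrowest was that of H3f3b in Dp(16)1Yey, from -0.23 to 0.42. These intervals, and not the lack of a call, give the sizes that the data leave possible. Those of Dp(16)1Yey count the near-alike littermate libraries as separate, and may be too narrow if they are not. The genotype effect itself was compared between the lines in 1 fit of all 14 libraries. There 0 of 10 members passed at an adjusted p, against 0% of 36045 loci, and 0 of 10 at an unadjusted p, against 2.66%. The members' median difference of effect, Dp(16)1Yey less 189N3, was 0.26, with 8 above 0, beside 0.08 over all loci with 57.2% above 0. The highest value was that of Cenpa, 0.54 ± 0.40. Without Dp(16)1Yey replicate 1 the median was 0.06 and the value of Cenpa 0.21, and without 189N3 replicate 1 the median was -0.03.

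**Figure D3:**
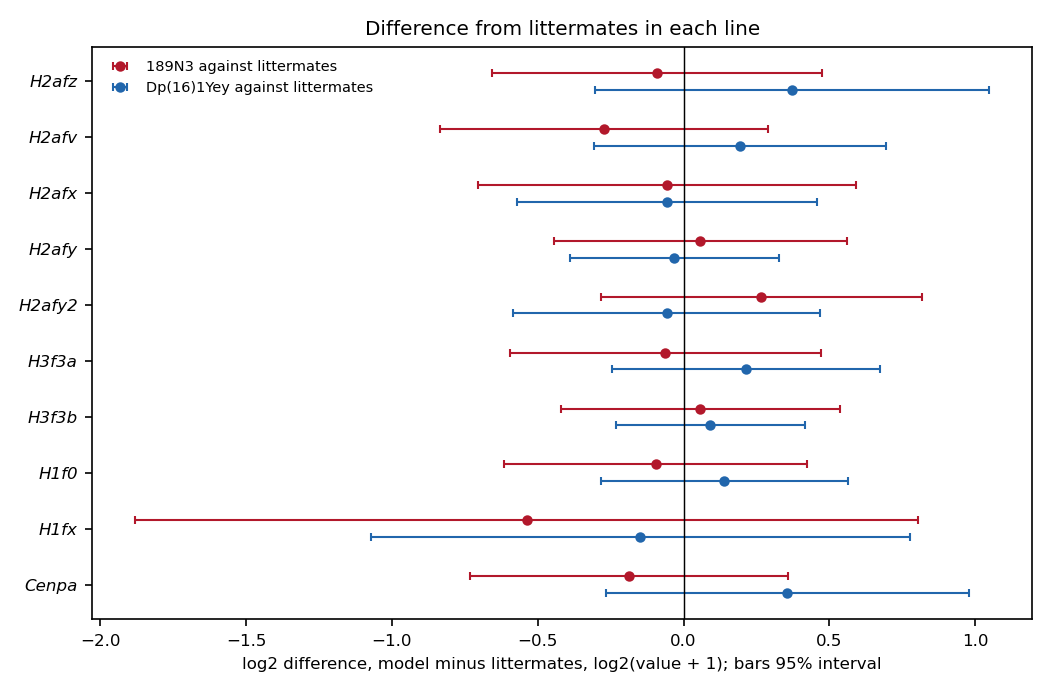
Log2 difference between each model and its littermates on log2(value + 1), with 95% intervals from limma, for 189N3 (red, 3 against 3) and Dp(16)1Yey (blue, 4 against 4). Every interval includes 0, and the widest are those of H1fx.

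Dp(16)1Yey replicate 1 held the highest value of its group for 7 of 10 members, whereas it held the highest for 31.0% of the named loci tested. Its excess was unequal among the members. On log2(value + 1) it stood above the mean of the littermates by 1.42 for H2afz, 1.36 for Cenpa, 0.94 for H2afv, 0.81 for H3f3a and 0.69 for H1f0, but by 0.28 for H2afx, 0.27 for H3f3b, 0.22 for H1fx and 0.11 for H2afy and for H2afy2. The median over named loci in this library was -0.03. Other lists were high in the same library: the 18 cell cycle genes had a mean log2 value of 11.2 there against 10.2, 10.7 and 10.4 in replicates 0, 2 and 3, and the 37 replication-dependent histone genes a mean of 8.33 against 6.80, 6.69 and 6.88. The 6 erythroid markers tested had a mean of 11.7 there against 8.48 to 10.5, and the hippocampal markers were lowest there, at 10.3. Dyrk1a, which is in the duplicated stretch, measured 2124 in this library and 4781, 3600 and 3044 in the others of its group, beside 2397 to 3175 in the littermates. The part of these differences in the members' values was not tested. Without this library the log2 differences of the members that stood out there were 0.02 for H2afz, -0.05 for H2afv, 0.02 for Cenpa, 0.02 for H3f3a and -0.05 for H1f0.

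**Figure D4:**
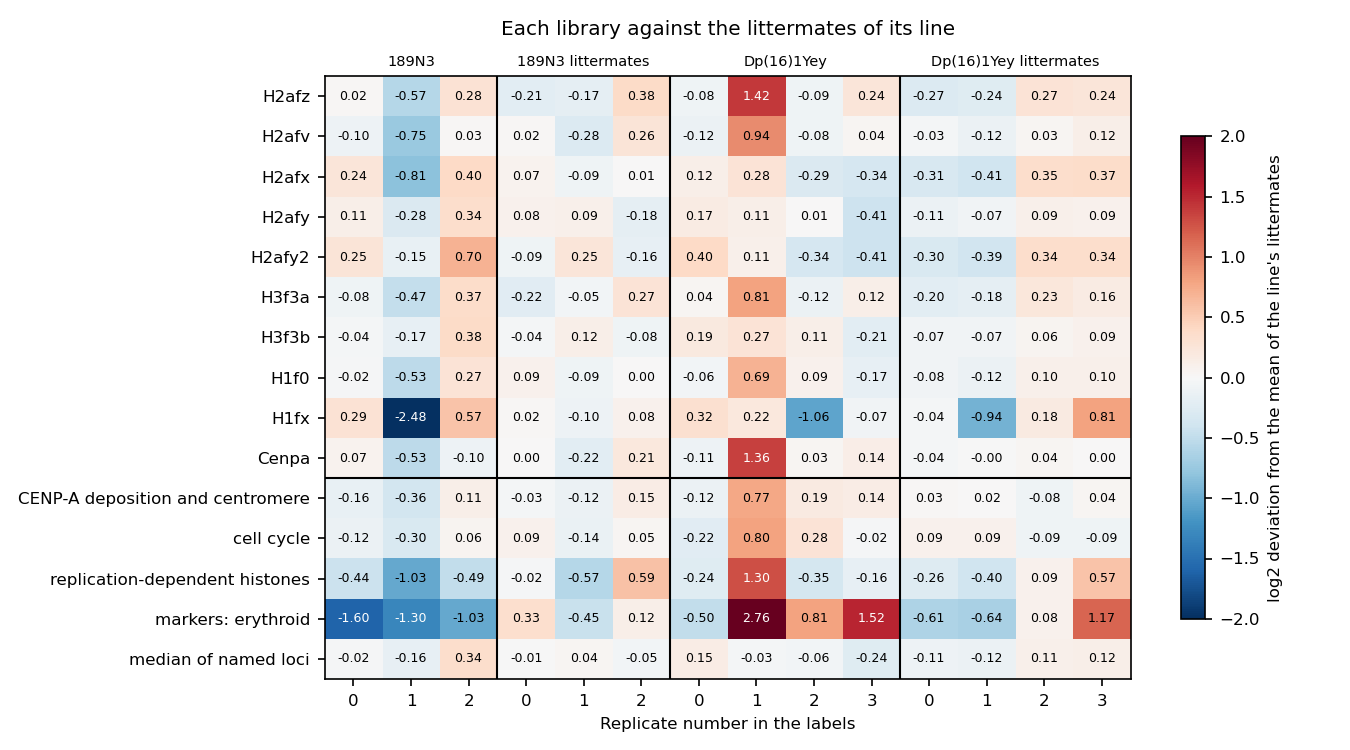
Deviation of each library from the mean of its line's littermates on log2(value + 1) for the 10 members (above the line), and for the mean of 4 gene lists and the median of named loci (below it). Colours end at -2 and 2, columns are replicates within groups, and Dp(16)1Yey replicate 1 shows 1.42 for H2afz and 1.36 for Cenpa beside 1.30 for the replication-dependent histones.

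Centred within each line, the members' values over the 14 libraries were correlated to differing degrees. H2afz correlated with H3f3a at a Pearson r of 0.96, with H2afv at 0.92 and with Cenpa at 0.91. Without Dp(16)1Yey replicate 1 these were 0.95, 0.82 and 0.73. H2afy correlated with H3f3b at 0.88 and with H2afy2 at 0.81, and without that library at 0.89 and 0.81. The lowest value of any pair was 0.07, for H2afy2 and Cenpa. H2afx and H1f0 correlated with most members, H2afx at 0.79 with H2afy2 and 0.71 with H3f3a, and H1f0 at 0.85 with H2afz and 0.73 with H3f3b. The genes of the H3.3 pair correlated at 0.62. All libraries share a size factor scale and the library-wide shifts given above, so these are descriptions of 14 points without a test. The named loci most like each member, among 11247 with a mean of at least 100, were Snrpb2 (r of 0.99) and Ppih (0.99) for H2afz, splicing genes, and Cdk4 (0.97) and Nudt1 (0.97) for H2afv. Cenpa was most like Cks2 (0.97) and Pbk (0.97), genes known from mitotic cells, and without Dp(16)1Yey replicate 1 the values were 0.92 and 0.89. For H3f3a they were Uqcrc2 and Chmp5 (both 0.99), for H3f3b Leprot (0.98) and Trim37 (0.97), and for H1f0 Cdk4 (0.95) and Rpl7l1 (0.95). For H2afx they were Pagr1a (0.98) and Ccni (0.97), for H2afy Kpnb1 and Slc35f6 (both 0.97), for H2afy2 Parp6 (0.98) and Cep120 (0.97), and for H1fx Kti12 (0.97) and Phf21b (0.93).

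Within pairs of genes for H2A.Z, H3.3, macroH2A and linker histones, no share was called as different by genotype. In 189N3 the exact permutation test could not have given a call, since 0.1 is the smallest p that 3 against 3 allows. In Dp(16)1Yey the smallest is 0.0286, so a p under 0.05 was possible there before adjustment over the 8 comparisons but not after it. A share within a library does not depend on its size factor. H2afz made up 82.5 to 89.0% of the fragments of H2afz and H2afv, with means of 88.5% ± 0.480 (SD, n = 3) in 189N3 and 87.1% ± 1.57 (n = 3) in the littermates, and of 86.2% ± 1.76 (n = 4) in Dp(16)1Yey and 84.7% ± 1.94 (n = 4) in the littermates. The difference of 1.39 percentage points in 189N3 gave an exact two-sided permutation p of 0.2, the smallest of the 8 comparisons made, and 0.838 after Benjamini-Hochberg adjustment. H3f3b made up 26.8 to 42.7% of the H3.3 fragments, with a median of 35.4%, so that H3f3a gave the larger part in every library. H2afy made up 63.5 to 72.6% of the macroH2A fragments. Per kilobase of annotated exon its share was 35.7 to 45.9%, so that H2afy2 gave the larger part in every library by that measure. With the length of the longest transcript, H2afy was above H2afy2 in 10 of 14 libraries. H1f0 made up at least 99.3% of the fragments of the linker pair, where H1fx had at most 32 fragments in a library. The largest difference was that of H2afy in 189N3, 66.4% ± 1.92 against 69.6% ± 2.38, by -3.14 points with an exact permutation p of 0.3. All 8 comparisons had overlapping groups.

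**Figure D5:**
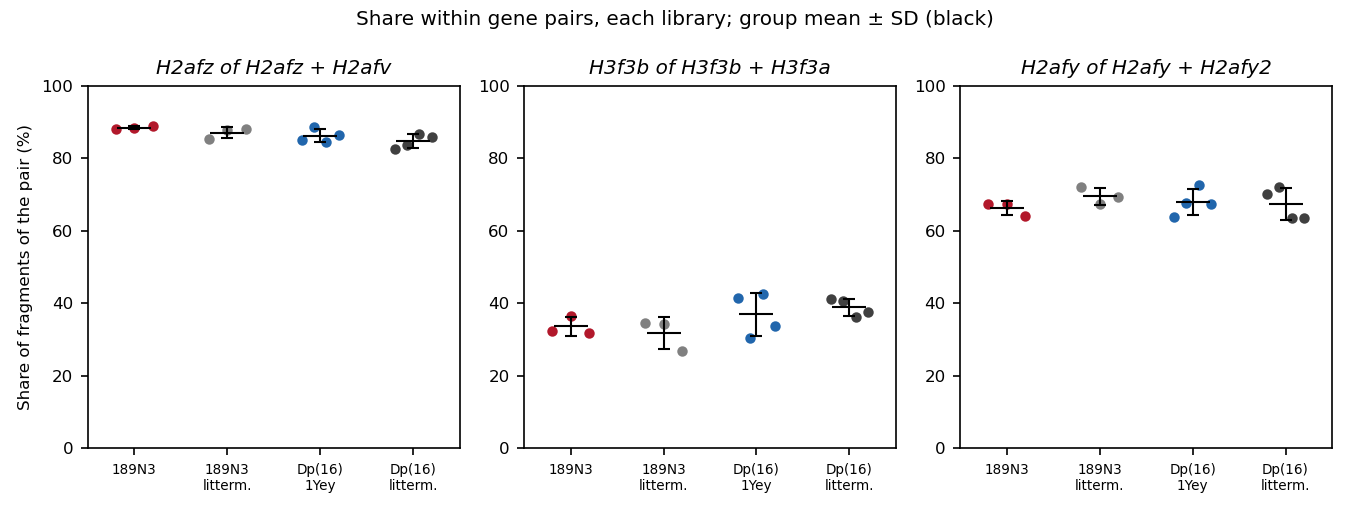
Share of the first gene in the fragments of 3 gene pairs in each library, with group mean ± SD (n = 3, 3, 4 and 4) in black. H2afz stays between 82.5 and 89.0%, H3f3b between 26.8 and 42.7% and H2afy between 63.5 and 72.6%. Shares are not corrected for length, and per kilobase of annotated exon that of H2afy is 35.7 to 45.9%.

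The replication-dependent histones, against which replacement variants are usually set, were lower on average in 189N3. Of their 40 named genes 35 were tested, 35 of 35 had a lower mean than in the littermates with a median log2 difference of -0.69, and 13 of 35 had an unadjusted p under 0.05 in that direction, against 1.05% of all loci, with 0 at an adjusted p. Hist1h3a, an H3 gene of the main cluster, measured 84, 62 and 47 in 189N3 and 133, 79 and 182 in the littermates, a log2 difference of -0.98 ± 0.33. Hist2h4, an H4 gene, measured 99, 71 and 79 against 163, 97 and 297, a log2 difference of -1.02 ± 0.35. Both genes had overlapping groups, and 7 of 35 had groups that did not overlap, all lower, against 4.98% of loci in either direction. Without littermate replicate 2 the median was -0.35, with 34 of 35 lower and 0 at an unadjusted p under 0.05, against 518 of all 35869 loci in either direction. It was -0.47 without 189N3 replicate 1, with 4 of 35 at that p, against 2423 of all 35741 loci in either direction. Without littermate replicate 1 it was -0.95, with 25 of 36 at that p, against 861 of all 35940 loci in either direction. In Dp(16)1Yey, Hist2h2be (0.22 ± 0.18) and Hist1h2bp (0.50 ± 0.46) had the smallest p, the median of 38 tested was 0.12, and without replicate 1 that of 37 was -0.27, with 33 lower. The difference of effect between the lines was above 0 for 37 of 37 genes, with a median of 0.77 (0.34 without Dp(16)1Yey replicate 1), and 0 of 37 had an unadjusted p under 0.05. Members and cluster genes were not tested against each other. The labels give polyA RNA as the molecule and a total RNA kit in the protocol, which bears on the cluster mRNAs, since these lack a poly(A) tail. Erythroid markers were lower in the same 189N3 libraries, where their summed value was 13935 to 22232 against 33976 to 54440, with 6 of 6 tested at an unadjusted p under 0.05, and so were skin markers, 4 of 5, with no tested marker at 0. Their part in these differences was not tested.

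The genes that place the variants gave no call at an adjusted p. H2A.Z is exchanged by the SRCAP and TIP60-p400 complexes. Of the 13 genes of the H2A variant exchange list, which holds Ino80 beside genes of these complexes, 0 passed at an adjusted p in either line. In 189N3 their median log2 difference was 0.04, with Trrap at 0.24 ± 0.23 and Srcap, the ATPase, at 0.23 ± 0.23. In Dp(16)1Yey it was -0.08, with 10 of 13 lower. Trrap, the scaffold of the acetyltransferase, measured 2879, 1972, 2634 and 2056 there and 3280, 3013, 3020 and 3776 in the littermates, so that the groups did not overlap, by -0.47 ± 0.17 with an unadjusted limma p of 0.0176 and an adjusted p of 0.909. Ep400, the p400 ATPase, stood at -0.27 ± 0.18. The H3.3 chaperone genes (7 tested, HIRA and DAXX-ATRX routes) had a median of 0.07 in 189N3, with Hira at 0.15 ± 0.26 and Daxx at 0.11 ± 0.27. In Dp(16)1Yey their median was -0.01, where Cabin1, a partner of HIRA, was at -0.45 ± 0.20 and Dek at 0.29 ± 0.19.

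The CENP-A deposition and centromere genes, 15 in number, had a median of -0.12 in 189N3, with 12 of 15 lower, Cenpn at -0.41 ± 0.27 and Cenpk at -0.32 ± 0.27. In Dp(16)1Yey their median was 0.25, with 13 of 15 higher, and 0.03 without replicate 1, with 10 of 15 higher. Mis18a, which licenses centromeres for new CENP-A and lies in the duplicated stretch, measured 300, 391, 280 and 309 in Dp(16)1Yey and 167, 165, 218 and 227 in the littermates. All 4 values lay above all 4 of the littermates, by 0.72 ± 0.18 on the log2 scale with an unadjusted limma p of 0.0023 and an adjusted p of 0.909. In 189N3, where it has no extra copy, the difference was -0.07 ± 0.29. Cenpl was at 0.42 ± 0.26 in Dp(16)1Yey. Cenpa itself, the substrate of this route, had the values given above, with 3 of 4 Dp(16)1Yey libraries between 280 and 331.

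Among genes of replication-coupled assembly, Chaf1b, the middle subunit of CAF-1 and also in the duplicated stretch, measured 532, 437, 549 and 427 in Dp(16)1Yey and 295, 313, 336 and 341 in the littermates, with no overlap and a difference of 0.59 ± 0.16. In 189N3 it was 0.01 ± 0.24. The list's median was 0.01 in 189N3 and 0.20 in Dp(16)1Yey over 9 genes, and 0.07 without Dp(16)1Yey replicate 1. In 189N3, Lsm11, which the list holds although it acts in histone mRNA processing, was at 0.29 ± 0.30 and Asf1b at -0.13 ± 0.26. Nasp, a histone chaperone, was at 0.41 ± 0.18 in Dp(16)1Yey. The 18 cell cycle genes had medians of -0.15 in 189N3 (Aurkb at -0.31 ± 0.27 and Top2a at -0.25 ± 0.22) and of 0.18 in Dp(16)1Yey (Birc5 at 0.44 ± 0.29 and Ccna2 at 0.35 ± 0.24). Without Dp(16)1Yey replicate 1, 9 of 18 were higher and 9 lower. The 189N3 medians moved with its replicates 1 and 2: leaving these out in turn gave 0.22 and -0.13 for the H2A exchange list, 0.21 and -0.03 for H3.3 deposition, -0.04 and -0.28 for CENP-A, 0.09 and -0.10 for replication-coupled assembly, and -0.04 and -0.23 for the cell cycle list. No gene of these lists (0) passed at an adjusted p in either line.

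Isoform estimates added no call. They covered 1 to 7 isoforms per member. Sparse isoforms of H2afy and Cenpa fell under the filter on low values and were not tested. None of the member isoforms tested passed at an adjusted p, against 0.0366% of 60141 isoforms in 189N3 and 0.0214% of 60652 in Dp(16)1Yey. None had an unadjusted p under 0.05, against 2.56% and 3.48%. H2afy was carried by the annotated isoforms uc011yzz.1, with a median of 62.1% of the estimates (range 56.9 to 67.4%), and uc007qsf.2, with 32.5% (28.6 to 36.3%). Which of these encodes macroH2A1.1 or macroH2A1.2 is not given in the sources used here. The main H2afz isoform uc008rmo.1 held 53.2 to 68.1% and a variant of it 29.9 to 45.3%. In H2afv the main isoform uc007hyp.2 varied from 34.8 to 97.1% of the estimates. The map also holds loci on the opposite strand of H2afv, Cenpa and H1fx. The one over H1fx measured 7.14 to 30.6, as much as H1fx itself, and the larger of those over Cenpa 85.1 to 418. The libraries were stranded, but the strand setting of the alignment is not given in the sources used here, so values of these 3 genes are less certain.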

How the data were processed

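The authors mapped stranded RNA-seq reads of embryonic hippocampus to mm10 with Bowtie and TopHat, and used Cufflinks to assemble, merge and quantify, with its options for sequence bias and multiple mapping. Versions and strand options are not given in the sources used here. The deposited values are a signal, namely the fragments of a locus after division by a size factor. Multiplied back, 100% of them came out whole, within 0.02 fragments. Isoform values are estimates on this scale. Of 59796 loci, 49069 were matched to the deposited map of transcripts (whose numbers are shifted by up to 11), and 17497 had a gene name. All 14 columns were used.

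Loci with a mean of at least 10 in the samples compared were kept and tested on log2(value + 1) with limma 3.58.1 (R 4.3.3, trended eBayes, no covariates), adjusted over all loci by Benjamini-Hochberg at 0.05. The lines were compared by an interaction over 14 libraries. Shares and members were also tested by exact permutation (SciPy 1.17.1). Alternatives were edgeR 4.0.16 and DESeq2 1.42.0 on recovered fragments, other pseudocounts, filters and scalings, a replicate block, averaged near-alike libraries and each library left out (for the gene lists, a choice made after seeing the data, as was the longest-transcript length). The fit was tested on simulated data. Lengths came from GENCODE vM21 and promoters from RefSeq (9 of 10 members). The members and lists were chosen with earlier results of these data known. Named were the members, the 2 genes of each deposition, cell cycle and histone list with the smallest p in each line, Mis18a, Chaf1b, Dyrk1a and the 2 loci most like each member. The rule also took 2 genes of each cell type marker list, and these lists are given by their summaries. Depth was 20809136 to 29098454 fragments.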

Additional observations from a re-analysis of the deposited data

Results flagged for a closer look

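In groups of 4 libraries, a value is listed here where its gap to the nearest of the others, divided by the range of the group, is above Dixon's 95% critical value for 4 values, which chance exceeds in about 1 in 20 groups. Of 14 values tested in the Dp(16)1Yey group (10 members and 4 shares) 3 did so, and of 14 in its littermates 0. All 3 belong to Dp(16)1Yey replicate 1. H2afz was 14001 normalised fragments there against 4912 to 6180 in the other 3 libraries. H2afv was 1801 against 862 to 963. Cenpa was 776 against 280 to 331. The 3 values share 1 library and are not independent of each other. H3f3a, at 30420, and H1f0, at 6482, were also highest in that library but stayed under the critical value, with gaps of 0.803 and 0.756 of the range. The rule was applied to normalised fragments and percent shares, not to log2 values. On log2(value + 1), H2afz stood 1.42 above the littermate mean in replicate 1, against -0.09 to 0.24 in the other 3 libraries. Its gap is a smaller part of the range on that scale, so its flag is tied to the scale of fragments. The share of all loci that meet the rule in replicate 1 was not counted.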

How the results depend on the processing

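No member passed at an adjusted p (0 of 10) in either line or in the difference between them under any setting, and the smallest adjusted p of a member under any was 0.734 in 189N3, 0.452 in Dp(16)1Yey and 0.561 between lines. Directions were not firm, and the cause was not tested. In 189N3, H2afy was -0.0147 under quantile normalisation, H2afx was 0.0176 with edgeR and 0.0682 with DESeq2, and H3f3a was 0.00466 with DESeq2. Between lines, H2afx was -0.00307 with a pseudocount of 10, -0.0571 with median-ratio size factors, -0.13 with edgeR and -0.18 with DESeq2. H3f3b was -0.0255 with median-ratio size factors, -0.0371 under quantile normalisation and -0.0343 with DESeq2, and H1fx was -0.13 with edgeR and -0.20 with DESeq2. When single libraries were left out, log2 differences that changed sign in 189N3 ran from -0.28 to 0.15 for H2afz, -0.29 to 0.32 for H2afx, -0.0858 to 0.23 for H2afy, -0.28 to 0.14 for H3f3a, -0.10 to 0.17 for H3f3b, -0.28 to 0.12 for H1f0 and -1.09 to 0.43 for H1fx. In Dp(16)1Yey they ran from -0.0547 to 0.30 for H2afv, -0.19 to 0.0683 for H2afx, -0.10 to 0.10 for H2afy, -0.21 to 0.0583 for H2afy2, -0.0451 to 0.24 for H1f0 and -0.46 to 0.15 for H1fx. Between lines they ran from -0.38 to 0.23 for H2afx, -0.26 to 0.0546 for H2afy, -0.0773 to 0.20 for H3f3b and -0.58 to 0.94 for H1fx. The number of member isoforms at an unadjusted p under 0.05 ran from 0 to 2 in 189N3 and from 0 to 1 in Dp(16)1Yey. The share of all isoforms at that p in the same settings is not given here, so no conclusion was drawn from these counts. A replicate block left 0 of 10 members in each line. It moved the calls over all loci at an adjusted p from 0 to 72 in 189N3 and from 0 to 0 in Dp(16)1Yey, but same-numbered libraries deviated in opposite directions (correlations of -0.32 to -0.03 and -0.45 to -0.07), 0 of 3 and 0 of 4 correlated best with their own number, and the numbers were not taken as pairs. Over all loci, DESeq2 called 15 in 189N3 and 8 in Dp(16)1Yey, where limma called 0.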
